A study of Mus musculus with 16 samples.

Results

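The natural killer (NK) and T cells of lineage-depleted mouse bone marrow were taken from 8 droplet libraries by a rule on transcripts, and numbered 1029 of the 94917 cells that passed quality filters. A cell was taken if at least 2 of 7 genes (Ccl5, Klrd1, Il2rb, Gzma, Cd3e, Cd3d and Cd3g) each had a unique molecular identifier (UMI, the count of 1 captured transcript), if the neutrophil enzyme gene Mpo had fewer than 5 UMIs, and if Siglech, which marks plasmacytoid dendritic cells, had none. Cells with a UMI of any of the 3 Cd3 genes, which encode chains of the T cell receptor complex, formed the T part (541 cells), and the cells without one formed the NK part (488 cells). The names are working names for cells picked by these 7 genes, so the levels of those genes are given as a description and were not tested.

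NK cells are innate lymphocytes that kill infected or transformed cells without rearranged antigen receptors, under the balance of activating and inhibitory surface receptors, many of them encoded by genes of the Klr family. They grow in the marrow under IL15, which signals through Il2rb and STAT5, and they respond to IL12, IL18 and interferon gamma. T cells arise in the thymus, and the mature cells that return to the marrow are often memory cells, also kept by IL7 and IL15. Lineage depletion is aimed at mature blood cells, and since the antibodies of the kit are not given in the sources used here, how far it removed NK and T cells is not known.

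The mice were Tet2 fl/fl without Cre (WT) or Vav-Cre Tet2 fl/fl (Tet2-KO), 6 to 12 weeks of age per the labels, and received vehicle or IL1β at 500 ng per mouse and day for 5 weeks, with 4 mice in each of the 4 groups. Vav-Cre acts in all blood cells, so NK and T cells, their precursors and the myeloid cells around them carried the deletion together, and both genotypes carried the floxed alleles. Each library held marrow of 2 mice of 1 group, told apart by antibody hashtags. Tet2 read from the 3′ end does not show whether the floxed exon was lost: its level was 30.3 CPM (UMIs of the gene in 1000000 summed UMIs) in the gated cells of the WT vehicle group and 35.7 in those of the Tet2-KO vehicle group. The study asked how IL1β, an inflammatory cytokine, acts on Tet2-deficient blood formation, and the comparisons here put that question to its NK and T cells.

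Libraries held 8569 to 14573 kept cells each, and 698 to 6432 cells were assigned to each mouse. Between 14.3% and 49.8% of the kept cells of a library had no hashtag call, against 0.972% of the NK and T cells. WT vehicle mouse 2 stood apart with 698 cells, none of them in the NK part, which allows a share of up to 0.430%. Transcripts of both sexes were read in cells given to 1 mouse in 2 cases, WT vehicle mouse 2 (321 Xist and 556 Y-linked UMIs) and WT IL1β mouse 3 (8270 and 5124), so their hashtags did not separate single mice cleanly. In the other 14 mice the rarer kind made up at most 0.660% of these UMIs. No barcode of a gated cell occurred in the gate of another library, and 22 of their barcodes occurred among the kept cells of another library.

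The NK part carried NK genes that the rule did not use. Levels were read first in the cells with at most 2000 UMIs, 236 of the NK part and 245 of the T part, because larger cells often carried genes of other lineages. The background was read in the 8185 cells outside the gate of that size, and the median depths were 1514.5, 1617 and 1656 UMIs. Klrb1c, which encodes the NK1.1 antigen, had a UMI in 64.4% of these NK cells, in 27.3% of these T cells and in 0.733% of the cells outside the gate. Ncr1, the activating receptor NKp46, had a UMI in 49.6% of the NK cells, 7.35% of the T cells and 0.599% of the others. Klrb1c or Ncr1 was read in 189 of the 236 NK cells (80.1%, 95% Wilson interval 74.5 to 84.7, counting error only) and in 81 of 8185 other cells of that size (0.990%).

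The transcription factor Id2, on which NK cells and other innate lymphocytes depend, was read in 85.2% of the NK cells at a summed level of 1753 CPM, against 878 CPM in the T cells and 137 CPM outside the gate. Eomes, a factor of NK cell maturation, was read in 10.6% of the NK cells and 0.0489% of the others, and Tbx21, which encodes the related factor T-bet, in 23.3% and 0.232%. Of the cytotoxic genes, perforin (Prf1) had a UMI in 4.24%, granzyme B (Gzmb) in 8.90% and the granule gene Nkg7 in 70.8% of the NK cells, against 0.0611%, 2.15% and 20.9% of the others. The list of cytotoxic genes summed to 6.31 UMIs per NK cell, against 3.83 in other cells of that size. Xcl1, a chemokine that draws cross-presenting dendritic cells, had one in 44.9% and 0.342%. Genes of late maturation were seldom read, with Itgam (CD11b) in 1.69%, Klrg1 in 1.27% and the egress receptor S1pr5 in 0.424% of the NK cells, and Itgam lay below its share in the other cells (7.50%). The Ly49 receptors Klra8 and Klra4, fixed as NK markers, were read in 3.39% and 3.81%, and in 0.0122% of the others each. Genes shared with other innate lymphoid cells were also read, Il7r in 31.8% (5.58% of the others), Cxcr6 in 28.8% (1.03%) and Gata3 in 21.2% (2.27%). Tmem176a, an ion channel gene of innate lymphoid and myeloid cells, had a UMI in 44.5% of the NK cells, 6.94% of the T cells and 14.2% of the cells outside the gate. A fixed boundary between NK cells and other innate lymphocytes was not drawn.

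The T part, as gated, held many cells with NK receptors. A cell with only 1 Cd3 gene entered it only if Ccl5, Klrd1, Il2rb or Gzma was also read. The rule itself thus favours cells of this kind, and the shares below are of gated cells, not of marrow T cells at large. Of the 245 T cells with at most 2000 UMIs, 192 (78.4%, 95% Wilson interval 72.8 to 83.1) had a UMI of a Klra gene, Klrc1, Klrc2, Klre1 or Klrk1, against 153 of 8185 other cells of that size (1.87%). The coreceptor genes Cd8a or Cd8b1 were read in 53 of them (21.6%, 16.9 to 27.2), and Cd4 in 1 (0.408%). The T lineage kinase Lck had a UMI in 41.6% of the T cells and 23.3% of the NK cells, the T lineage factor Bcl11b in 22.4% and 7.63%, and Cd247 in 17.1% and 2.97%, against 1.15%, 0.757% and 0.257% of the cells outside the gate. Ly6c2 was read in 75.9% of the T cells and 25.8% of the others, and the chemokine receptor gene Ccr7, of naive and central memory cells, in 2.04% and 0.415%. Foxp3, the factor of regulatory T cells, was at 0 in both parts at this depth. The genes of the T cell receptor chains themselves were not analysed here, so that T cells and NK cells with intracellular Cd3 transcripts were not told apart.

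**Figure D1:**
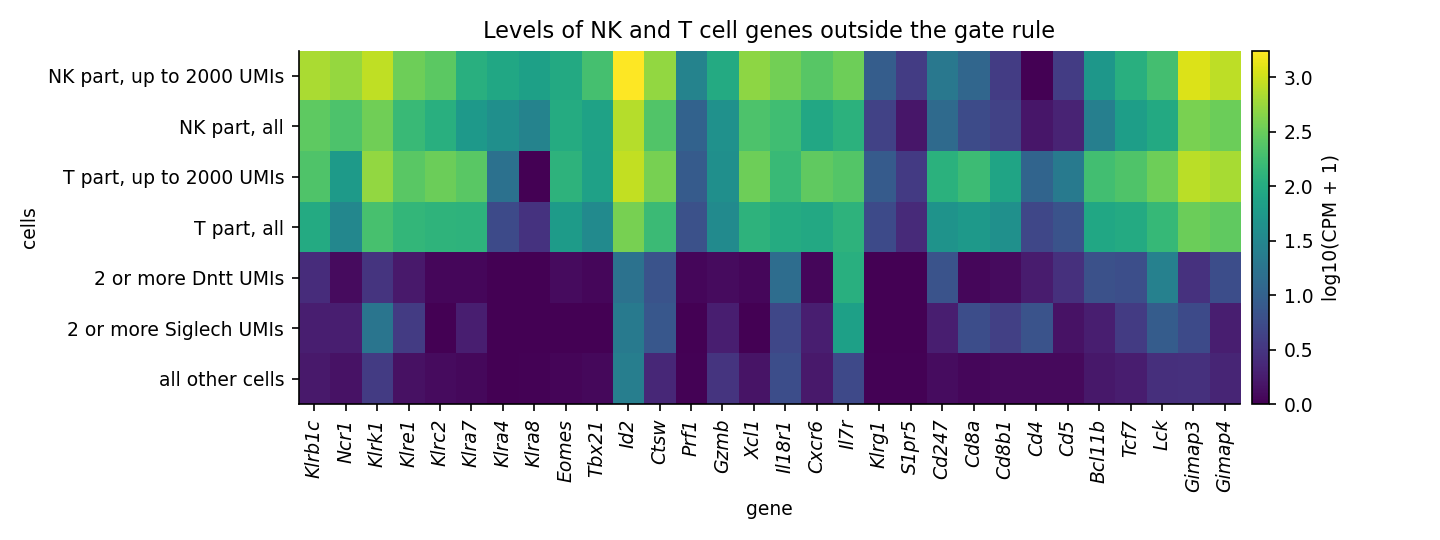
Levels of 30 NK and T cell genes that the gate rule did not use, as log10(CPM + 1) of the summed UMIs, in 7 sets of cells: the NK and T parts, whole and up to 2000 UMIs per cell, cells with 2 or more Dntt UMIs, cells with 2 or more Siglech UMIs, and all other cells. Klrb1c and Ncr1 are brightest in the NK rows and Cd8a and Cd247 in the T rows, and most of the genes are dark in the 3 comparison sets, Il7r in the Dntt and Siglech sets being an exception.

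The gate genes themselves, which chose the cells, had these values. Ccl5, a chemokine stored by cytotoxic lymphocytes, was read in 95.3% of the NK cells and 90.2% of the T cells with at most 2000 UMIs. Il2rb, the shared chain of the IL2 and IL15 receptors, was read in 81.8% and 57.1%, and Klrd1, the CD94 receptor, in 62.7% and 46.5%. Exactly 2 of the 7 genes were seen in 338 of the 1029 cells, and 1681 cells with exactly 1 lay just outside. The limit on Mpo left out 238 cells and the one on Siglech alone 15. The main receptor for the injected cytokine, Il1r1, had a UMI in 0.847% of the NK cells and 0 of the 245 T cells with at most 2000 UMIs, against 0.953% of the cells outside the gate of that size.

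The gated cells held fewer transcripts than the rest, and the larger of them carried genes of other lineages. Their median UMI count was 2080.5 in the NK part and 2175 in the T part, against 5962 outside the gate. The gate genes stayed near a constant number per cell across size classes, at 11.1 UMIs in the cells with at most 2000 UMIs and 11.8 in those above 8000. Neutrophil and myeloid progenitor markers (14 genes such as the elastase gene Elane) summed to 4.62 UMIs per cell in the smallest class, 59.4 above 2000 and up to 4000 UMIs, and 172 above 4000 and up to 8000. Erythroid markers summed to 1.01 UMIs per cell in the smallest class and 128 above 8000 UMIs. Double hashtags, which mark droplets with cells of both mice, were called in 2.70% of the smallest class, 17.8% of the next and 27.2% of the third and 17.1% of those above 8000 UMIs, whereas cells outside the gate had 2.33%, 1.68%, 2.98% and 7.25%. Droplets with double hashtags were left out of all comparisons between mice, and droplets that joined cells of the same mouse could not be seen that way.

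**Figure D2:**
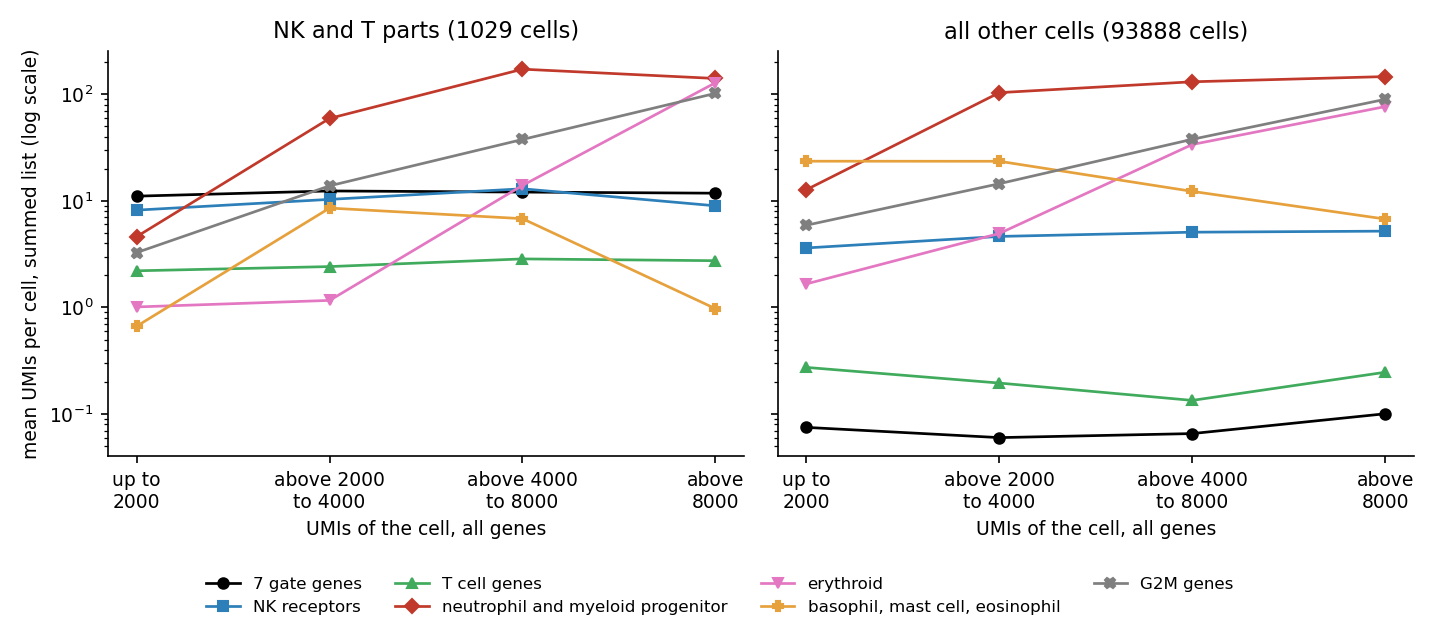
Mean UMIs per cell (log axis) of 7 gene lists in 4 classes of total UMIs, for the gated NK and T cells and for all other cells. In the gated cells the gate genes stay near 12 UMIs per cell while the neutrophil list rises from 4.62 to 172 and the erythroid list from 1.01 to 128.

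No difference in the share of NK cells between groups passed after adjustment, and the groups overlapped. In percent of a mouse's cells it was 0.192, 0, 1.26 and 0.548 in the WT vehicle mice 1 to 4 and 0.326, 0.282, 0.627 and 2.18 in the WT IL1β mice. It was 0.522, 1.03, 0.233 and 0.378 in the Tet2-KO vehicle mice and 2.59, 2.12, 0.575 and 0.903 in the Tet2-KO IL1β mice. The Tet2-KO IL1β mice held the highest mean, 1.55% ± 0.963 (SD, n = 4), but 2 of them lay inside the range of the Tet2-KO vehicle mice. The IL1β difference was 1.01 percentage points in Tet2-KO (two-sided exact permutation test, p = 0.114, adjusted p = 0.905 over 10 share tests) and 0.355 points in WT (exact p = 0.543, adjusted p = 0.905), and the difference between them was 0.652 points (exact p = 0.429, adjusted p = 0.905). With 4 mice against 4, the smallest p this test can give is 0.0286. Over 10 tests a single difference between 2 groups at that p could not pass after adjustment, so these tests do not show that the shares were equal.

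T cell shares varied as widely within groups. They were 0.505, 0.143, 1.53 and 0.810% in the WT vehicle mice, 0.218, 0.282, 0.475 and 2.32% in the WT IL1β mice, 1.09, 3.02, 0.700 and 0.334% in the Tet2-KO vehicle mice, and 3.37, 1.36, 0.322 and 0.573% in the Tet2-KO IL1β mice. All groups overlapped. The IL1β difference was 0.0766 points in WT (exact permutation p = 0.886, adjusted p = 0.962) and 0.119 points in Tet2-KO (exact permutation p = 0.857, adjusted p = 0.962). Shares are of lineage-depleted cells, so a change in how many cells of other lineages passed the depletion moves them as well. They are also of cells with a single hashtag, and cells without a hashtag were far rarer in the gate than outside it, which raises the shares by amounts that differ between libraries. In percent of all kept cells of a library, the NK part was 0.152 and 0.613 in the WT vehicle libraries, 0.255 and 0.545 in the WT IL1β, 0.367 and 0.261 in the Tet2-KO vehicle and 1.55 and 0.637 in the Tet2-KO IL1β libraries.

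**Figure D3:**
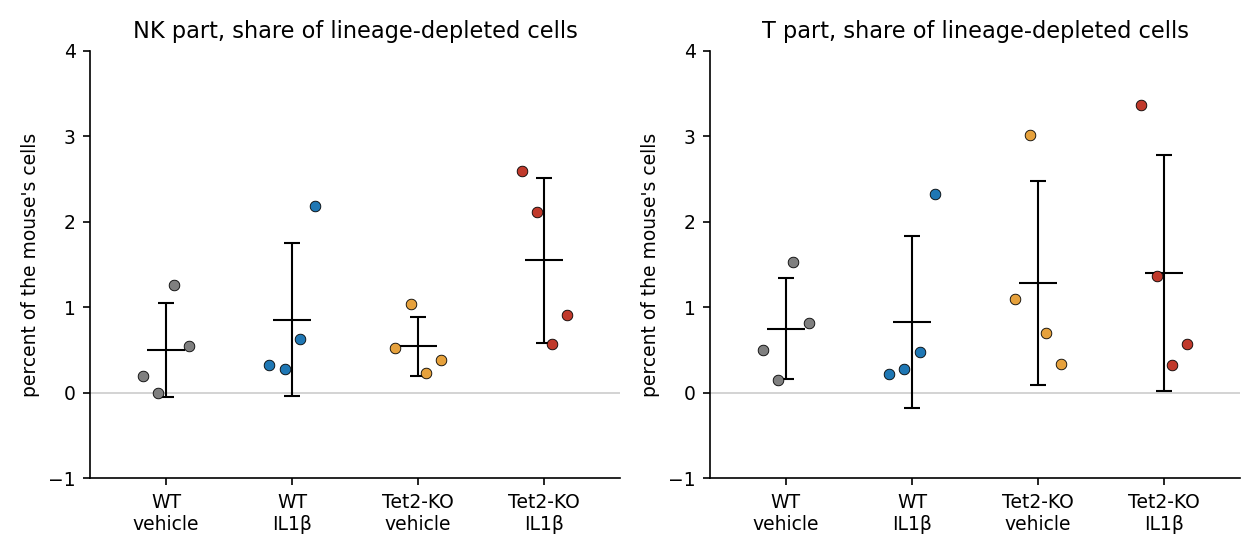
Percent of a mouse's assigned cells in the NK part (left) and the T part (right), 1 dot per mouse in 4 groups, with the mean and SD as bars. The NK mean of the Tet2-KO IL1β mice is 1.55%, with mice from 0.575% to 2.59% that overlap the other groups.

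The balance of the NK and T parts was looked at after the shares had been seen. NK cells made up 27.6, 45.1 and 40.4% of the gated cells of the 3 WT vehicle mice with at least 10 of them, and 60.0, 50.0, 56.9 and 48.4% of those of the WT IL1β mice. They made up 32.4, 25.5, 25.0 and 53.1% in the Tet2-KO vehicle mice and 43.5, 60.9, 64.1 and 61.2% in the Tet2-KO IL1β mice. The WT groups did not overlap, and the Tet2-KO groups overlapped through vehicle mouse 4 and IL1β mouse 1. The means were 37.7% ± 9.04 (SD, n = 3) with vehicle and 53.8% ± 5.51 (SD, n = 4) with IL1β in WT (two-sided exact permutation p = 0.0286, the smallest this design can give; adjusted p = 0.143 over 5 tests), and stood at 34.0% ± 13.2 and 57.4% ± 9.38 (SD, n = 4 each) in Tet2-KO (exact p = 0.0571, adjusted p = 0.143). Neither passed after adjustment, and with 5 tests a single difference at the smallest possible p could not pass. In the cells with at most 2000 UMIs the Tet2-KO difference was 35.6 points (exact permutation p = 0.0286, adjusted p = 0.143). With cells of at least 2000 UMIs thinned to 2000 before gating it was 10.5 points (exact permutation p = 0.371). Smaller cells were left out of the thinned set, which held 20, 47, 13 and 16 gated cells in the Tet2-KO IL1β mice, against 85, 156, 39 and 67 before. The 2 values thus come from different cells.

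Fewer of the NK cells were large in the Tet2-KO IL1β mice than in the Tet2-KO vehicle mice. The share of NK cells above 2000 UMIs was 50.0, 38.5, 61.5 and 88.2% in the Tet2-KO vehicle mice and 10.8, 30.5, 28.0 and 24.4% in the Tet2-KO IL1β mice, which do not overlap. It was 61.0 and 57.1% in the WT vehicle mice that entered the gene tests (mice 3 and 4, of 1 library) and 76.2, 60.6 and 61.3% in the WT IL1β mice 1, 3 and 4. Since the larger cells carried the genes of other lineages, the gene comparisons are given for all NK cells and again for the small cells where a gene could be tested there, and the part of the larger cells in a gene's difference was not tested beyond that.

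**Figure D4:**
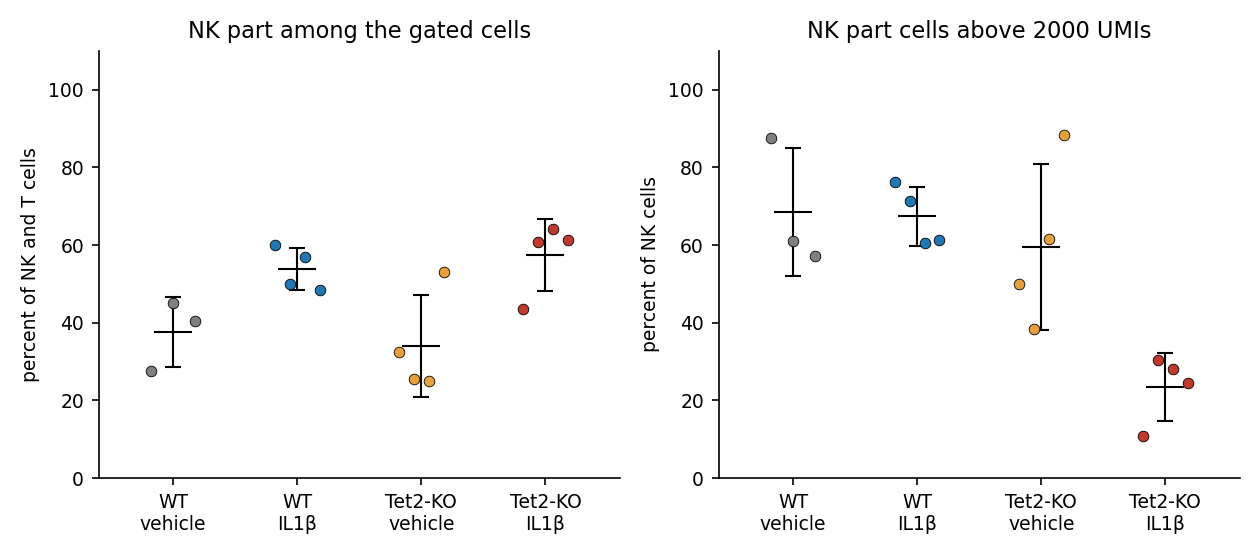
NK cells in percent of gated NK and T cells (left) and NK cells above 2000 UMIs in percent of all NK cells (right), 1 dot per mouse in 4 groups, with the mean and SD as bars. On the right the Tet2-KO IL1β mice lie at 10.8 to 30.5% and the Tet2-KO vehicle mice at 38.5 to 88.2%.

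For the gene comparisons UMIs were summed over the NK cells of each mouse with at least 10 of them. This gave 13 mice (2 WT vehicle, 3 WT IL1β, 4 Tet2-KO vehicle and 4 Tet2-KO IL1β) with 50830 to 285329 UMIs each and 2513 genes above the count filter. IL1β in Tet2-KO changed 228 genes (9.07% of the genes tested). Of these 119 were higher (4.74%) and 109 lower (4.34%) by edgeR's quasi-likelihood test (Benjamini-Hochberg adjusted p below 0.05). The count was 14 with a gate of 3 or more genes, 74 with libraries as replicates and at least 85 with any 1 mouse left out. These are changes in a gene's part of the cell's transcripts, and the CPM of a mouse are scaled by edgeR's TMM factor. When UMIs were instead scaled to the number of cells, 733 genes passed (29.2%), 14 higher (0.557%) and 719 lower (28.6%), around a median shift of all genes of -0.75 on the log2 scale. With only the cells of at most 2000 UMIs, 359 genes could be tested and 0 reached the threshold (0.0%), while 41 had an unadjusted p under 0.05. That fit took mice with at least 5 such cells. It lost Tet2-KO vehicle mouse 4, which had 2, and the other vehicle mice had 11, 8 and 5, so it had less power as well as fewer large cells. Of the 57 called genes that the naming rule took for this comparison, 27 could be tested in the small NK cells, and the others, among them Cish, Socs1, Socs2, Ddit4, Ikzf3, Klrb1a, Klrb1f, Cd226, Car1, Vamp5 and Rgs10, could not. In the NK and T parts summed together at that size, 60 of 824 genes passed (7.28%), as did 10 of the 35 such genes tested there. In the cells outside the gate 45.5% of 2700 genes passed, and 41.3% did for IL1β in WT. This fit took all 16 mice, so its WT comparison set 4 mice against 4, more than entered the NK test.

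Of the 24 NK receptor genes in the list 16 were tested for IL1β in Tet2-KO, and 7 rose and 0 fell, with a median log2 fold change of 1.31 beside -0.02 for all genes. Over all genes tested 4.74% rose and 4.34% fell, the shares to set beside this list and those below for this comparison. Among the small NK cells 8 were tested, 0 passed, and their median was 0.14. Summing the small NK and T cells, 2 of 12 rose and 1 fell. With UMIs scaled to cells 1 of 16 rose, Klrb1f, and the median was 0.54.

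Klrb1f, a C-type lectin receptor of the NK1.1 family (chr6:129045901-129057464, plus strand, GRCm38), stood at 106, 62.1, 122 and 50.1 CPM in the 4 Tet2-KO vehicle mice and at 426, 221, 268 and 284 CPM in the Tet2-KO IL1β mice. The groups did not overlap, as for 17.2% of all genes tested. The log2 fold change was 1.79 ± 0.36 (standard error, as for all fold changes here), with an edgeR adjusted p of 0.00962, and it passed in 13 of 13 fits that left out 1 mouse each. In cells outside the gate it fell by 1.09, and the NK change exceeded that of the other cells by 2.90 (edgeR adjusted p = 0.000645). It also passed in the small NK and T cells together, at 2.69 (edgeR adjusted p = 0.000718). In that sum NK cells averaged 28.4% of a mouse's cells with vehicle (3 mice) and 64.0% with IL1β (4 mice). This balance was not adjusted for, here or in any other comparison of that sum.

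Klrb1c was at 305, 124, 122 and 50.1 CPM with vehicle and at 950.2, 378, 383 and 459.7 CPM with IL1β in Tet2-KO, again without overlap. The log2 difference was 1.78 ± 0.45 (edgeR adjusted p = 0.021), and 0.33 in the small NK cells (edgeR adjusted p = 0.872). Ncr1 was at 92.8, 109, 304 and 138 CPM with vehicle and at 639, 371, 670.2 and 251 CPM with IL1β, where mouse 4 lay below vehicle mouse 3. It rose by 1.58 ± 0.41 (edgeR adjusted p = 0.0234), it passed in 8 of 13 fits with 1 mouse left out, and in the small NK cells it was 0.57 (edgeR adjusted p = 0.701). For both defining NK genes the value was smaller in the fit of the small cells. That fit also lacked Tet2-KO vehicle mouse 4, so the loss of the larger cells and of that mouse were not told apart. Among the rest of the list, Klrb1a rose by 1.71 ± 0.46, Cd226, an activating receptor for nectin-like ligands, by 1.61 ± 0.36, and Klrk1, the NKG2D receptor, by 0.99 ± 0.29 (edgeR adjusted p = 0.0283, 0.0157 and 0.04). Klrk1 was at 0.23 in the small NK cells (edgeR adjusted p = 0.902).

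Among the genes that rose most were Cish, Socs2, Socs1 and Ddit4, which belong to no list and were named for the size of their change. Cish, an inhibitor of IL2 and IL15 signalling that STAT5 induces, had 0, 1, 0 and 1 UMIs in the Tet2-KO vehicle mice and 13, 27, 2 and 15 in the Tet2-KO IL1β mice. Over the summed groups this was 110.2 CPM against 7.29 CPM, a ratio of 15.1 with a 95% interval of 4.00 to 128 from counting error alone. The edgeR adjusted p was 0.022, and 9 of the 11 fits with 1 mouse left out that tested it passed. Its promoter is shown because it carries, side by side, a pair of matches to the letters TTCNNNGAA that STAT5 binds. In RefSeq (GRCm38.p6) the window chr9:107296409-107296708, plus strand, runs from 250 bases before to 50 after the start, with the matches in capitals.

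Cish promoter: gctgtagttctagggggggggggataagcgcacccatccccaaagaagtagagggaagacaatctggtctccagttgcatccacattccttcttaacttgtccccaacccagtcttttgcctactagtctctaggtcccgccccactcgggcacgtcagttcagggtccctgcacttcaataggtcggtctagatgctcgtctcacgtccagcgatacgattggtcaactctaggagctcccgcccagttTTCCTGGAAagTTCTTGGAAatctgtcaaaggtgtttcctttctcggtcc

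TTCNNNGAA, searched on both strands, occurs in 8.30% of 32851 mouse promoters of that length, so a match alone is common. A promoter was matched for 14 of the 21 genes looked up, which were those named for this comparison and Nfkbia, and Cish was the 1 gene among them that held it. The data here measure transcripts and not binding at these letters.

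Socs2, another feedback gene of the STAT5 pathway, was at 39.8, 15.5, 20.3 and 25.1 CPM with vehicle and at 180.2, 136, 115 and 100.3 CPM with IL1β in Tet2-KO. Its log2 fold change was 2.29 ± 0.48 (edgeR adjusted p = 0.0137), it passed in 12 of 12 fits with 1 mouse left out, and in cells outside the gate it was 0.05 (edgeR adjusted p = 0.937). Socs1 was at 13.3, 15.5, 40.5 and 0 CPM against 229, 85.1, 172 and 41.8 CPM, a log2 fold change of 2.84 ± 0.84 (edgeR adjusted p = 0.0405). In the list of cytokine receptors 2 of 5 tested genes rose, Il18rap, a chain of the IL18 receptor, and Ifngr1. Ifngr1, the ligand-binding chain of the interferon gamma receptor, rose from 186, 233, 223 and 138 CPM to 835, 436, 651 and 326 CPM, by 1.48 ± 0.29 (edgeR adjusted p = 0.00962), and it passed in 13 of 13 fits with 1 mouse left out. It rose by less in cells outside the gate (0.71), and it passed in the small NK and T cells together (1.11, edgeR adjusted p = 0.00694). That sum was not adjusted for the larger portion of NK cells with IL1β, and no gene passed in the small NK cells alone. Ddit4, a stress-induced inhibitor of mTORC1, had 0 UMIs in all 4 Tet2-KO vehicle mice and 9, 14, 6 and 6 in the IL1β mice. Over the group this was at least 6.19-fold higher, against a floor of 3 counts in the vehicle group (edgeR adjusted p = 0.0389), but only 3 of the 7 fits with 1 mouse left out that tested it passed.

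In the list of NF-κB factors and their feedback inhibitors, the pathway that the IL1 receptor activates, 1 of 5 tested genes rose. Nfkbia, the inhibitor that NF-κB itself induces, was at 106, 62.1, 122 and 37.6 CPM with vehicle and at 278, 259, 287 and 109 CPM with IL1β in Tet2-KO, with mouse 4 inside the vehicle range. The log2 difference was 1.51 ± 0.40 (edgeR adjusted p = 0.0279), and 2.55 in the cells outside the gate (edgeR adjusted p = 0.000192). It did not pass in the small NK and T cells together (0.55, edgeR adjusted p = 0.505) or with UMIs scaled to cells (0.77, edgeR adjusted p = 0.154). With vehicle in WT it was at 84.9 and 52.1 CPM, and at 216, 192 and 346 CPM with IL1β, and did not pass there. Its promoter is shown for its match to the letters GGGANTTTCC that NF-κB binds, on the other strand and in capitals, in the window chr12:55492598-55492897, minus strand (RefSeq, GRCm38.p6).

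Nfkbia promoter: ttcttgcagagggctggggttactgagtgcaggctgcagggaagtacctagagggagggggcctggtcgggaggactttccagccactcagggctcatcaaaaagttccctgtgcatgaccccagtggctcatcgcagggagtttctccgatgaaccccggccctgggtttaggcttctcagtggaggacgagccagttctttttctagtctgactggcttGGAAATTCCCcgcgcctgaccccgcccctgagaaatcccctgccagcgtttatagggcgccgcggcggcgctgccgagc

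GGGANTTTCC occurs in 0.411% of the same promoters, again counting both strands.

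Of the NK and T transcription factors 3 of 13 tested rose in the Tet2-KO NK part with IL1β (Ikzf3, Id2 and Ets1), and of the survival genes 1 of 4 (Bcl2). Id2 stood at 649, 342, 567 and 577 CPM with vehicle and at 2326, 1246, 1015 and 1053 CPM with IL1β, a log2 fold change of 1.39 ± 0.30 (edgeR adjusted p = 0.015), and it passed in the small NK and T cells together (1.00, edgeR adjusted p = 0.0119). There too the balance of NK and T cells was not adjusted for, and no gene passed in the small NK cells alone. Bcl2, the antiapoptotic gene that IL15 keeps up in NK cells, rose from 265, 171, 122 and 263 CPM to 1048, 514, 747 and 660.3 CPM, by 1.78 ± 0.34 (edgeR adjusted p = 0.00767), while it fell by 0.54 in cells outside the gate (edgeR adjusted p = 0.04). Per cell it was 0.909, 0.846, 0.462 and 1.24 UMIs with vehicle and 1.73, 1.59, 1.56 and 1.93 with IL1β, and it passed with UMIs scaled to cells (0.96, edgeR adjusted p = 0.0406). It did not pass in the small NK cells (0.96, edgeR adjusted p = 0.397) or in the small NK and T cells together (0.56, edgeR adjusted p = 0.219). Ikzf3, the lymphoid factor Aiolos, had 2 UMIs over the vehicle group and 47 over the IL1β group, a ratio of 12.5 with a counting interval of 3.26 to 106 (edgeR adjusted p = 0.0163).

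The Gimap genes encode small GTPases that keep lymphocytes alive, and 2 of the 8 tested rose (median log2 fold change 1.01). Gimap3 was at 411, 171, 162 and 226 CPM with vehicle and at 1720, 684, 1111 and 560.0 CPM with IL1β in Tet2-KO, a log2 fold change of 2.00 ± 0.36 (edgeR adjusted p = 0.00719). It passed in 13 of 13 fits with 1 mouse left out, in the small NK and T cells together (1.03, edgeR adjusted p = 0.025) and with UMIs scaled to cells (1.14, edgeR adjusted p = 0.0128). It did not pass in the small NK cells alone, where no gene did in this comparison. Of the list of innate lymphoid cell genes 3 of 6 rose, Il7r, Tmem176a and Tmem176b, with a median of 1.56. Tmem176b was at 66.3, 139.8, 162 and 113 CPM with vehicle and at 475, 249, 536 and 259 CPM with IL1β, by 1.59 ± 0.36 (edgeR adjusted p = 0.0163), and it passed in the small NK and T cells together at 2.92 (edgeR adjusted p = 0.00329). In that sum the NK cells were also a larger portion of the cells with IL1β, and this balance was not adjusted for.

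Over all genes tested 4.74% rose and 4.34% fell. MHC class I genes, whose products inhibit NK cells, rose in 4 of 10 tested, led by H2-Q7 (1.27), Tapbp (1.22) and H2-K1 (0.86), with a median of 0.96. In the small cells H2-K1 was at -0.012 in the NK part and H2-Q7 at -0.030 in the NK and T parts together. Cytotoxic genes rose in 2 of 7, both serpins (Serpinb9, 1.95, and Serpinb6b, 1.46) that block granzymes rather than granzymes themselves. Maturation and homing genes rose in 4 of 16 (Thy1, Ly6c2, Itgal and Ccr2), but Itgal was at -0.27 in the small NK cells and Ly6c2 at -0.25 in the small NK and T cells. No chemokine or cytokine gene passed among 5 tested. Heat shock genes fell in 4 of 11, and in 7 of them in the cells outside the gate. Hsp90aa1 was at 2147, 2191, 1965 and 1780 CPM with vehicle and at 901, 1059, 957 and 1170 CPM with IL1β, a log2 fold change of -0.98 ± 0.17 (edgeR adjusted p = 0.00432), but -0.16 in the small NK cells (edgeR adjusted p = 0.929).

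Erythroid and ribosomal genes made up part of the lower genes. Car1, an erythroid carbonic anhydrase, was at 888, 2144, 1236 and 827 CPM with vehicle and at 32.8, 323, 134 and 644 CPM with IL1β, a log2 fold change of -2.04 ± 0.48 (edgeR adjusted p = 0.0164). Over the 10 erythroid markers the summed level ran from 3383 to 13791 CPM in the Tet2-KO vehicle mice and from 356 to 4524 CPM in the Tet2-KO IL1β mice, and over the 14 neutrophil markers from 489 to 26618 and from 1327 to 10328 CPM. In the small NK cells the erythroid range was 386 to 897 CPM with vehicle (3 mice) and 378 to 731 CPM with IL1β, and the neutrophil range was 1630 to 29574 CPM and 1509 to 1901 CPM. Monocyte and dendritic cell markers (14 genes) ran from 374 to 1054 CPM with vehicle and from 1294 to 1505 CPM with IL1β, without overlap, where 1 of 6 tested passed (Ccr2), and basophil, mast cell and eosinophil markers from 39.3 to 200.4 and from 154 to 582 CPM. The monocyte and dendritic cell markers overlapped in the small NK cells, at 652 to 2013 and 1259 to 1828 CPM. The part of these lists in the differences was not tested. Ribosomal protein genes, a list added after the data were seen, fell in 19 of 82 (median -0.34), in 28 of 81 in the small NK and T cells together and in 38 of 82 in the cells outside the gate. Vamp5, a vesicle fusion protein gene, fell from 278, 466, 263 and 338 CPM to 65.5, 116, 57.4 and 109 CPM, by 1.79 ± 0.29 (edgeR adjusted p = 0.00432). Rgs10, a brake on G protein signalling, was at 53, 171, 101 and 125 CPM and at 0, 27.2, 0 and 33.4 CPM, a log2 fold change of -2.30 ± 0.58 (edgeR adjusted p = 0.0212), and it also fell in the cells outside the gate by 1.23. The other genes that the naming rule took by size were Gpc1 (2.82), Fam102a (2.69), Inpp4b, a phosphoinositide phosphatase gene (2.35), and Tsc22d3, a glucocorticoid-induced gene (2.15), among the higher genes. Among the lower ones they were Chchd10 (-2.05), Pop5 (-2.02), Eif4ebp1, a repressor of translation (-1.93), Grpel1 (-1.73), Blvrb (-1.67), Cks2 (-1.63) and Srm, the spermidine synthase (-1.56).

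**Figure D5:**
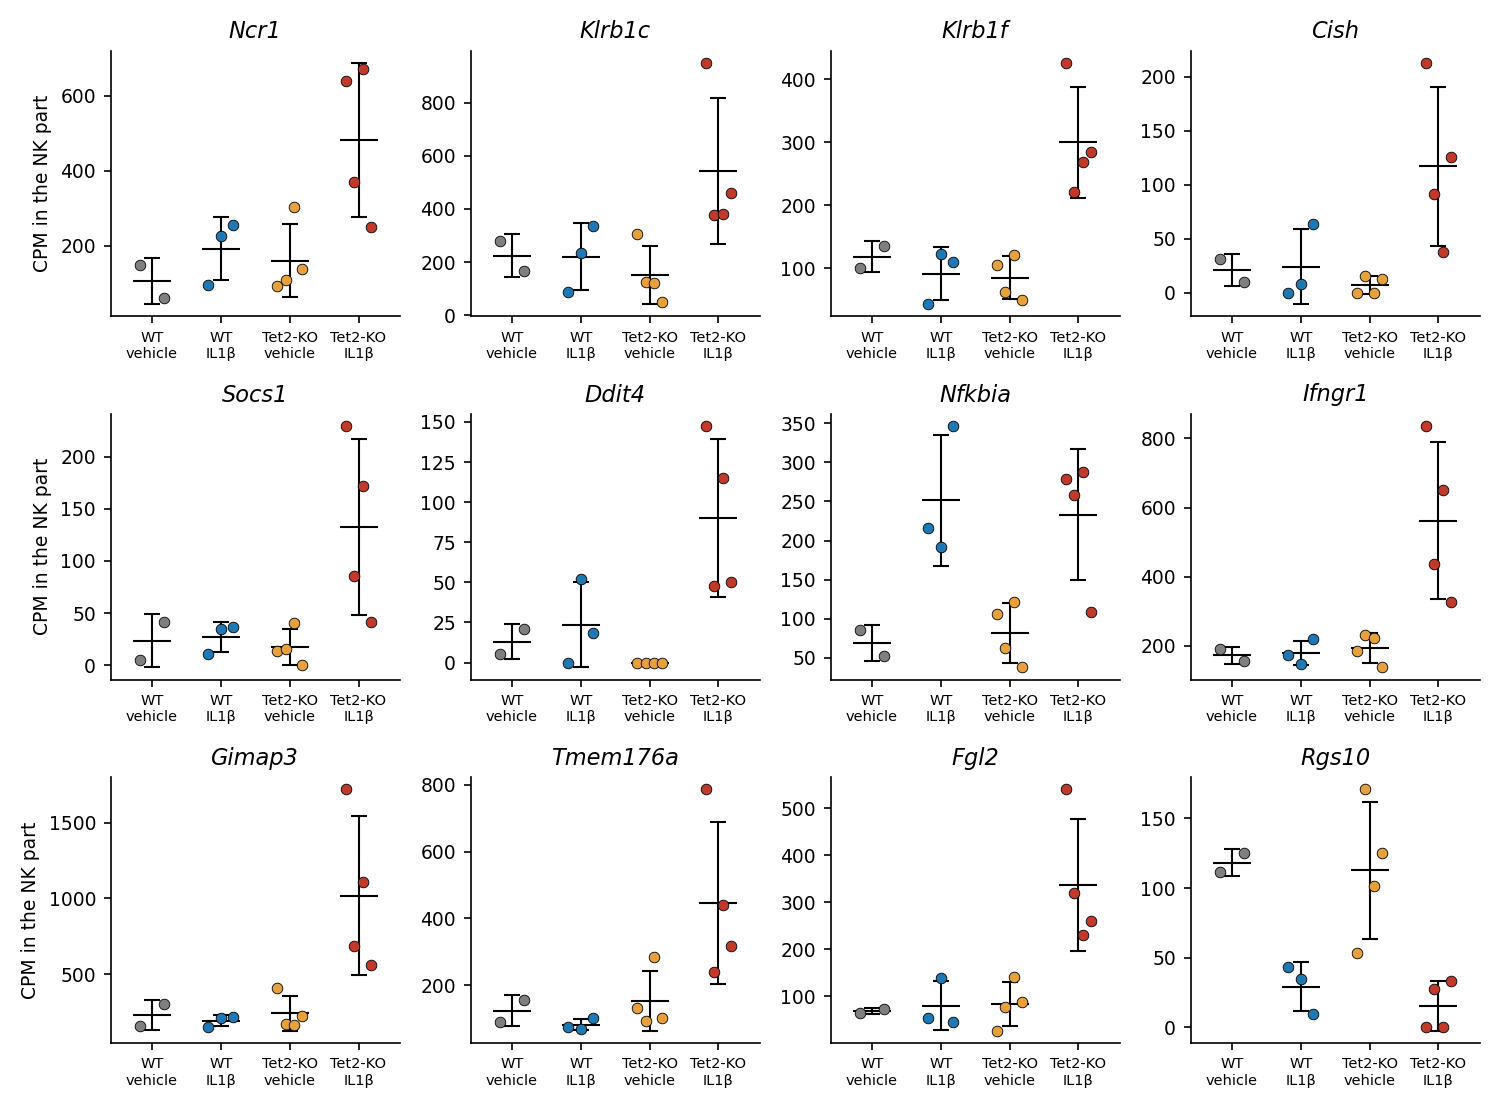
Level (CPM) of 12 genes in the NK part, 1 dot per mouse in 4 groups, with the mean and SD as bars. Klrb1f, Ifngr1 and Gimap3 lie higher in all Tet2-KO IL1β mice than in all Tet2-KO vehicle mice, and Rgs10 lies lower.

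To ask which changes went beyond those of the surrounding marrow, the NK change was set against the change in the cells outside the gate of the same mice. For IL1β in Tet2-KO 33 genes differed (1.31%), of which 32 had the higher change in the NK part (1.27%) and 1 the lower (0.0398%). A higher change need not be a rise in the NK part, since the gene may also have fallen outside the gate. Beside Klrb1f these included Bcl2 (2.28, edgeR adjusted p = 0.0051), Tmem176b (1.90, edgeR adjusted p = 0.0111) and Sept9, a septin gene of the cytoskeleton (3.25, edgeR adjusted p = 0.00895). In the NK part Sept9 had only 3 UMIs over the Tet2-KO vehicle group and 57 over the Tet2-KO IL1β group. The ratio was 10.1, with a 95% interval of 3.28 to 50.3 from counting error alone. For IL1β in WT 2 genes differed (0.0796%), Crip1 and Emp3, and for genotype with IL1β 3 did (0.119%), S100a4, Tmem176a and Gimap3.

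In WT, IL1β changed 1 gene of the NK part at the same threshold, Rps15a, which fell (0.0398% of genes), and 374 genes had an unadjusted p under 0.05. DESeq2 called 48 genes. The comparison rests on 2 vehicle mice of 1 library against 3 mice, so genes of that library and of vehicle cannot be told apart. By Xist and Y-linked UMIs both vehicle mice were male, while WT IL1β mouse 1 was male, mouse 4 female and mouse 3 mixed. With sex as a covariate 17 genes passed, but the covariate counted the mixed WT IL1β mouse 3 as female. The count was 0 without WT IL1β mouse 3 and at most 49 with any mouse left out. Klrb1f was at 101 and 135 CPM with vehicle and at 43.1, 122 and 109 CPM with IL1β, and Ncr1 at 149 and 62.5 and at 97, 227 and 255 CPM, with overlapping groups. The median log2 fold change was -0.06 for NK receptors and 1.79 for NF-κB genes, against 0.04 over all genes, and 0 passed in either list. Neutrophil markers ranged from 391 to 548 CPM in the WT vehicle mice and from 430 to 61062 CPM in the WT IL1β mice. Other lists did not overlap. Erythroid markers ran from 7139 to 13388 CPM with vehicle and from 954 to 4276 CPM with IL1β. Stem and megakaryocyte progenitor markers ran from 68.6 to 193 and from 304 to 1510 CPM, and B and plasma cell markers from 10.2 to 63.4 and from 78.5 to 1880 CPM. The part of these lists in the differences was not tested. Small NK cells alone gave 11 of 359 genes past the threshold (3.06%). In the small NK and T cells together 86 of 824 genes passed (10.4%), 50 of them among the 81 ribosomal protein genes tested, all lower, and 3 of the 6 neutrophil markers tested there were higher. Also higher in that sum were 3 of 3 tested G2M genes and 2 of 4 tested S phase genes.

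Whether IL1β acted differently in the NK cells of the 2 genotypes was tested as an interaction, and 0 of 2513 genes passed by edgeR (0.0%), or by DESeq2, and 197 had an unadjusted p under 0.05. This test rests on the same 2 WT vehicle mice of 1 library. In the small NK and T cells together 10 of 824 passed (1.21%). They included 3 neutrophil markers and 1 G2M gene, with negative values, and 1 of 12 NK receptors, with a positive value. The larger number of calls in Tet2-KO is not in itself a difference between genotypes. In simulated counts for these mice, changes of 1 on the log2 scale were found in 26% of cases in the WT comparison and 30% in the Tet2-KO comparison, and changes of 2 in 78% and 87%. All simulated mice shared 1 mean profile and the same spread per gene. Uneven marker levels between mice and the single library of the WT vehicle mice were not modelled, so the near rates do not show equal power in the data.

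Between genotypes with vehicle, 0 NK genes passed by edgeR (0.0%) and 0 by DESeq2, and 92 had an unadjusted p under 0.05. The WT side was again the 2 male mice of 1 library, while the Tet2-KO vehicle mice were of both sexes. In the simulated counts, changes of 1 on the log2 scale were found in 7% of cases in this comparison and changes of 2 in 76%. With IL1β 24 genes passed (0.955%), of which 21 were higher (0.836%) and 3 lower (0.119%) in the NK part of Tet2-KO than of WT mice. In the cells outside the gate 0 of 2700 differed (0.0%), in a fit that held all 4 WT IL1β mice, against 3 in the NK part. DESeq2 called 44 genes. In the small NK cells 15 of 359 passed (4.18%), and in the small NK and T cells together 46 of 824 (5.58%). The count fell to 1 without WT IL1β mouse 4, to 2 without WT IL1β mouse 3, whose cells carried transcripts of both sexes, to 2 without Tet2-KO IL1β mouse 1 and to 9 without mouse 3, and to 0 with UMIs scaled to cells. Neutrophil markers ranged from 430 to 61062 CPM in the WT IL1β mice and from 1327 to 10328 CPM in the Tet2-KO IL1β mice, and 3 of the 6 tested were lower in the small NK and T cells together, and 1 was higher. Stem and megakaryocyte progenitor markers did not overlap, at 304 to 1510 CPM in WT IL1β and 34.3 to 280 CPM in Tet2-KO IL1β mice. In the small NK cells they overlapped, at 99.3 to 521 and 41.3 to 155 CPM. The part of these lists in the differences was not tested.

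Gimap3 was at 151, 209 and 219 CPM in the WT IL1β mice against the 560.0 to 1720 CPM above, a log2 fold change of 2.35 ± 0.39 (edgeR adjusted p = 0.0142). It was 1.62 in the small NK cells (edgeR adjusted p = 0.0257) and exceeded the difference in the other cells by 2.60 (edgeR adjusted p = 0.0393). Tmem176a was higher by 2.33 ± 0.44 and Ifngr1 by 1.58 ± 0.31 (edgeR adjusted p = 0.0198 each), and both passed in the small NK and T cells together (2.20 and 1.34, edgeR adjusted p = 0.00467 and 0.00726). Ltb, the membrane anchor of lymphotoxin that organises lymphoid tissue, stood at 119, 166 and 173 CPM in WT and 819, 484, 766 and 309 CPM in Tet2-KO (1.89 ± 0.35, edgeR adjusted p = 0.0198). Of the NK receptors 4 of 16 were higher, Klrb1a, Klrb1f, Cd226 and Klrk1, against 0.836% of all genes. Of the cytotoxic genes Nkg7 was higher (0.96 ± 0.22, edgeR adjusted p = 0.0403). Of the NK receptors 0 of 8 passed in the small NK cells (median 0.43, against 0.95 in all NK cells), and in the small NK and T cells together 1 of 12 did. Inpp4b had the highest value in this comparison (2.79), and Serpina3g (2.05), Fgl2 (2.02) and Tmem176b (1.67) were also higher.

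Of the cell division genes, 1 of 19 tested G2M genes and 0 of 19 S phase genes were lower in Tet2-KO, against 0.119% of all genes. Stmn1, a tubulin-binding protein of dividing cells, was at 787, 1081 and 1194 CPM in the WT IL1β mice and at 131, 480.1, 459.5 and 476 CPM in the Tet2-KO IL1β mice, a log2 fold change of -1.36 ± 0.32 (edgeR adjusted p = 0.0466). In the small NK cells it was -3.59 (edgeR adjusted p = 0.000214). Ube2c, a ubiquitin conjugase of mitotic exit, was at 518, 401 and 574 CPM and at 32.8, 197, 153 and 184 CPM (-1.66 ± 0.36, edgeR adjusted p = 0.0312), and was the G2M gene that passed (median of the list -1.13). In the small NK cells 3 G2M genes could be tested and all were lower, and with UMIs scaled to cells 0 passed. For IL1β in WT, 2 of 3 G2M genes tested in the small NK cells were higher (median 2.48), against 0 of 19 in all NK cells (median 0.31). The genotype difference was thus read against WT IL1β mice in which these genes were higher than with vehicle in the small cells.

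The T part was tested in the same way in 14 mice with 14 to 61 cells and 2383 genes. IL1β in Tet2-KO changed 168 genes (7.05%), with 67 higher (2.81%) and 101 lower (4.24%), but the count was 0 without Tet2-KO vehicle mouse 3 or Tet2-KO IL1β mouse 2, 6 without vehicle mouse 4, 32 without IL1β mouse 1, 36 without vehicle mouse 2 and 423 without vehicle mouse 1. With UMIs scaled to cells 137 passed (5.75%), 4 higher (0.168%) and 133 lower (5.58%). In the small T cells 34 of 543 passed (6.26%).

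Lymphocyte transcription factors rose in 4 of 11 tested (Ikzf3, Id2, Ets1 and Runx3), with a median of 0.84 against -0.01 for all genes. Over all genes tested in the T part 2.81% rose and 4.24% fell. Id2 was at 382, 275, 175 and 199 CPM with vehicle and at 752, 1018, 596 and 814 CPM with IL1β, without overlap, as for 13.1% of all genes. Its log2 fold change was 1.63 ± 0.33 (edgeR adjusted p = 0.0178), and 1.44 in the small T cells (edgeR adjusted p = 0.000768). Cxcr6, a homing receptor of resident memory and liver lymphocytes, was at 46.8, 43.1, 64.7 and 85.1 CPM against 137, 315, 168 and 177 CPM (1.87 ± 0.39, edgeR adjusted p = 0.0178), and 1.94 in the small T cells (edgeR adjusted p = 0.0232). Cxcr4, which holds cells in the marrow, rose from 85.8, 86.1, 58.2 and 42.6 CPM to 166, 226, 168 and 229.9 CPM, by 1.46 ± 0.30 (edgeR adjusted p = 0.0178). Cd8a was at 23.4, 32.3, 38.8 and 0 CPM against 137, 105, 112 and 70.7 CPM (1.97 ± 0.55, edgeR adjusted p = 0.0401), the 1 of 8 tested T cell genes that passed. None of the 12 NK receptors tested in the T part passed, with a median of 0.68. By size the naming rule also took Serpinb9 (2.14), Tsc22d3 (2.13), Arsb (1.93), Fgl2 (1.75), Serpina3g (1.60) and Gimap8 (1.58) among the higher genes. The lower ones were Cox6b2 (-2.34), Ube2v2 (-1.89), Tmem147 (-1.83), Acp1 (-1.78), Polr2j (-1.75), Vamp5 (-1.71), Cyb5a (-1.58), Pdap1 (-1.57), Ndufv2 (-1.57) and Uqcrc1 (-1.42). Lower genes included Hbb-bs, an adult globin chain, at 694, 178, 764 and 4412 CPM against 145, 5.25, 279 and 35.4 CPM, and 3 of 9 erythroid genes in all fell. The erythroid markers summed to 2188 to 11203 CPM in the vehicle mice and 286 to 4207 CPM in the IL1β mice, and the neutrophil markers to 363 to 25377 and 1652 to 19779 CPM, and their part in the differences was not tested.

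IL1β in WT changed 48 T cell genes (2.01%), with 2 higher (0.0839%) and 46 lower (1.93%). Of the lower genes 41 were among the 82 ribosomal protein genes, of which 57 also fell in the cells outside the gate. Fau (-0.82) was 1 of these 41, Ssr4 (-1.59) was lower too, and the higher genes were Ywhah (1.11) and Hnrnpa3 (0.93). Tpt1, a translationally controlled gene of growing cells, was at 5726, 6047 and 6823 CPM with vehicle and at 3173, 3001 and 3452 CPM with IL1β, and lay between 4377 and 5745 CPM in all 8 Tet2-KO mice. Its log2 fold change was -0.95 ± 0.14 (edgeR adjusted p = 0.00103), it passed in 14 of 14 fits with 1 mouse left out and in the small T cells (-0.75, edgeR adjusted p = 0.0184), and it also fell in the cells outside the gate by 0.51. Txk, a kinase of T cell receptor signalling, was at 110.1, 235 and 258 CPM and at 29.2, 51.4 and 83.3 CPM (-1.82 ± 0.45, edgeR adjusted p = 0.0376). With UMIs scaled to cells 0 genes passed (0.0%), and in the small T cells 52 of 543 did (9.58%). Neutrophil markers in the small T cells ran from 740 to 1316 CPM with vehicle (3 mice) and from 15099 to 30490 CPM with IL1β (2 mice), with 3 of 3 tested higher. Basophil, mast cell and eosinophil markers in the same mice ran from 0 to 193 CPM with vehicle and from 119 to 4229 CPM with IL1β, and overlapped. The part of these lists in the differences was not tested.

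Comparing genotypes with vehicle, 0 T cell genes passed by edgeR (0.0%) or by DESeq2, and 60 had an unadjusted p under 0.05. With IL1β 7 passed (0.294%), of which 6 were higher (0.252%) and 1 lower (0.042%) in Tet2-KO. Cd52, a surface antigen of mature lymphocytes, was at 906, 756 and 981 CPM in WT and at 1932, 2116, 2031 and 1751 CPM in Tet2-KO (1.15 ± 0.21, edgeR adjusted p = 0.0464), and Psmb8, an interferon-induced subunit of the immunoproteasome, at 132, 88 and 120.3 CPM and at 297, 357, 391 and 318 CPM (1.61 ± 0.31, edgeR adjusted p = 0.0464). Gimap4 and Gimap3 were higher by 1.74 ± 0.33 and 1.71 ± 0.35 (edgeR adjusted p = 0.0464 each). Txk was higher by 2.06 and Orc2, a subunit of the origin recognition complex, was at -2.52. DESeq2 called 18 genes, the small T cells gave 13 of 543 (2.39%), and 0 passed with UMIs scaled to cells or without any 1 of 6 mice, WT vehicle mouse 3, WT IL1β mice 1 and 3, Tet2-KO vehicle mouse 3 and Tet2-KO IL1β mice 2 and 4. Neutrophil markers reached 76437 CPM in the T part of the WT IL1β mice and at most 19779 CPM in that of the Tet2-KO IL1β mice, and in the small T cells 3 of 3 tested were lower in Tet2-KO (median -5.01). Their part in the differences was not tested.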

How the data were processed

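Single-cell 3′ RNA-seq of lineage-depleted marrow was analysed from the UMI counts per gene and cell that the authors deposited as filtered 10x matrices. The matrices also held the hashtag counts, and a list of the authors gave the mouse that each hashtag stood for. The submitters' processing notes name Cell Ranger 3.1.0, Seurat 3.2.3 and the mm10 build. The deposited counts were used unnormalised, for 27998 genes and 121405 barcodes.

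Cells with at least 750 genes and at most 10% mitochondrial UMIs were kept, as in the study's methods (94917). Hashtags were called within each library with HTODemux (Seurat 5.3.0), and droplets with both or no hashtags entered no comparison between mice. UMIs were summed per mouse (at least 10 cells) for the NK and T parts, since cells are not replicates, and tested with edgeR 4.0.16 (quasi-likelihood, TMM, R 4.3.3) over all genes past the count filter, with Benjamini-Hochberg adjustment at 0.05; DESeq2 1.42.0 was an alternative. Shares were compared by two-sided exact permutation tests over mice (scipy 1.17.1). P-values measure the spread between mice, and 2 mice of a library share its preparation. Levels of a gene per mouse are CPM against the mouse's summed UMIs times its TMM factor, levels over sets of cells, groups and marker lists are CPM against summed UMIs alone, and fold changes are on the log2 scale. No hashtag doublet caller sees droplets of the same mouse, and no other doublet caller was run. Gene coordinates are GENCODE vM21 (GRCm38).

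The genes named were, for each comparison, the 10 called genes that rose most and the 10 that fell most among those whose mice did not overlap, leaving out the gate genes, sex-linked, ribosomal and unnamed genes, together with called or highly expressed members of the gene lists. Ribosomal genes were left out by their symbols, so that Fau, a ribosomal protein gene with another kind of symbol, stayed in. The rule's cells and the gene lists were chosen with earlier results of these data known. Alternatives tried were other normalisation, no count filter, libraries as replicates, a stricter gate of 3 genes, thinning to 2000 UMIs, a hashtag ratio rule, sex as a covariate, a block on the pool number and leaving out each mouse. Thinning left out the cells with fewer than 2000 UMIs. Chosen after seeing the data were scaling to cell number, cells of at most 2000 UMIs, and whole libraries as units. The edgeR step was tested on simulated counts with known changes.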

Additional observations from a re-analysis of the deposited data

Results flagged for a closer look

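Among 109 groups of 4 mice examined, 8 had 1 mouse far from the rest of its group by Dixon's criterion, and chance alone gives about 1 in 20 groups. In the NK part, Cks2 was at 0 CPM in 1 Tet2-KO IL1β mouse and Stmn1 at 131 CPM in 1 Tet2-KO IL1β mouse, each the lowest of its group, and Ikzf3 at 26.5 CPM in 1 Tet2-KO vehicle mouse, whose companions were at 0. In the T part of the Tet2-KO IL1β mice, Cyb5a reached 57.9 CPM in 1 mouse, while Gimap3 at 298.1 CPM and Gimap8 at 93.2 CPM were lowest in 1 mouse each. The T part made up 2.32% of the cells of 1 WT IL1β mouse, the highest of that group. NK cells made up 43.5% of the gated cells of 1 Tet2-KO IL1β mouse, the lowest of that group.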

How the results depend on the processing

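Counts of NK genes called changed with the processing as follows. With DESeq2 they were 48 for IL1β in WT and 44 for Tet2-KO against WT with IL1β. Without a count filter they were 91 for IL1β in WT, 19 and 97 for genotype with vehicle and with IL1β, and 24 for the interaction, and in the T part 263 for IL1β in Tet2-KO and 11 and 97 for genotype with vehicle and IL1β, where DESeq2 gave 18 for the last. With libraries as replicates they were 0, 74 and 2 for IL1β in WT, IL1β in Tet2-KO and genotype with vehicle. With 3 or more gate genes they were 51, 14 and 3. With sex as a covariate they were 17 for IL1β in WT and 7 for the interaction, with the mixed WT IL1β mouse 3 counted as female. Scaled to cell number they were 0 for IL1β in WT, 733 for IL1β in Tet2-KO and 0 for genotype with IL1β, and in the T part 0 for IL1β in WT and 0 for genotype with IL1β. In NK and T cells of at most 2000 UMIs together they were 86, 60 and 46 for IL1β in WT, IL1β in Tet2-KO and genotype with IL1β, and 10 for the interaction. In small NK cells alone they were 11, 0 and 15, and in small T cells 34 for IL1β in Tet2-KO and 13 for genotype with IL1β. Without a count filter the NK change beyond other cells was called in 31, 78, 12 and 60 genes for IL1β in WT, IL1β in Tet2-KO, and genotype with vehicle and with IL1β. The cause of these differences was not tested.

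With 1 mouse left out, NK counts ranged from 0 to 49 (IL1β in WT), 85 to 286 (IL1β in Tet2-KO), 0 to 2 (genotype, vehicle), 1 to 30 (genotype, IL1β) and 0 to 0 (interaction), and T counts from 15 to 57, 0 to 423, 0 to 1 and 0 to 53 for the first 4. The IL1β in Tet2-KO count was 85 without IL1β mouse 1, 102 without vehicle mouse 2, 108 without vehicle mouse 4, 123 without IL1β mouse 2, 136 without vehicle mouse 3 and 141 without IL1β mouse 3. The WT T count was 15 without WT IL1β mouse 4, 27 without WT IL1β mouse 3 or WT vehicle mouse 4, and 31 without WT vehicle mouse 3. Counts beyond other cells ranged from 0 to 5, 12 to 56, 0 to 0 and 0 to 13. NK share differences ranged from -0.0877 to 0.607 and 0.657 to 1.33 points for IL1β in WT and Tet2-KO, -0.124 to 0.295 and 0.345 to 1.14 for genotype, and 0.303 to 1.09 for the interaction. T share differences ranged from -0.423 to 0.338, -0.534 to 0.697, -0.0393 to 0.856, -0.0725 to 1.08 and -0.611 to 0.620. NK percent of gated cells differed by 11.1 to 19.8, 20.4 to 29.8, -10.1 to 0.00662, 1.37 to 8.23 and 3.59 to 13.7 points.

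Share differences turned sign with the hashtag ratio rule (-1.92 for NK and -3.21 for T with IL1β in WT, -1.57 for T with IL1β in Tet2-KO), with 3 gate genes (-0.00653, NK, genotype with vehicle), with thinning (NK -0.0998 and -0.146 for genotype with vehicle and IL1β and -0.0461 for the interaction, T -0.0210 for IL1β in Tet2-KO and -0.140 for the interaction) and with whole libraries (NK -0.0683 for genotype with vehicle, T -0.179 for IL1β in WT). With thinning, NK percent of gated cells turned to -19.3 points for genotype with IL1β and -8.87 for the interaction. Since thinning left out all cells with fewer than 2000 UMIs, these values differ from the main ones in the cells used as well as in depth. Among 124 named results, 1139 of 1624 values with 1 mouse left out and 616 of 879 others stayed past the threshold in the same direction. Of these values 0 and 4 changed sign, the 4 being H2-K1 (-0.012) and Itgal (-0.27) in small NK cells, and H2-Q7 (-0.030) and Ly6c2 (-0.25) in small NK and T cells.

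The pool numbers, shared across groups, showed no clear pairing: deviations from group means correlated at -0.06 to 0.09 between same-numbered libraries. Differently numbered libraries gave the mirrored values, and WT vehicle could not enter, since both its mice came from the same library. The check therefore cannot settle whether the numbers pair the samples. The replicate block on the pool numbers gave 241 NK genes for IL1β in Tet2-KO and 3 T genes for genotype with IL1β, and 8 of 124 named results lost their call.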
